A study of Mus musculus with 19 samples.

Results

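The homeodomain-interacting protein kinases Hipk1, Hipk2, Hipk3 and Hipk4 were followed in wild-type mouse hippocampal slices by RNA-seq and ribosome profiling. They were chosen by their symbols, which gave 4 of the 20436 genes in each count table. The family was put forward because the RNA of Hipk2 was higher after DHPG, so the RNA changes of its members, and the changes of their RPF to RNA ratio, are described here without a test. The change in ribosome-protected fragments (RPFs, pieces of mRNA that a ribosome shielded from nuclease) was measured in separate libraries and was tested. RNA levels of all 4 genes were high enough to be fitted, whereas RPF counts of Hipk4 were not, so that 3 members entered the RPF and ratio fits.

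Slices came from male wild-type mice of postnatal day 28 to 42, and all lysates contained cycloheximide at 100 µg/ml, which holds ribosomes on the mRNA. Basal slices received vehicle and DHPG slices received 100 µM of DHPG, an agonist of group I metabotropic glutamate receptors, for 5 min. RNA was sequenced from 4 basal and 5 DHPG lysates and RPFs from 5 of each, and the RNA and RPF libraries of 1 replicate and treatment came from 1 lysate of slices pooled from several mice. The DHPG RNA library of replicate 5 had no basal partner, so it adds nothing to the treatment effect in fits with replicate number as a block. Slices are mixtures of cells, in which fewer cells of a type and less RNA per cell cannot be told apart.

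HIPKs are serine/threonine kinases that act mostly in the nucleus, where they phosphorylate transcription factors and their corepressors and bind homeodomain proteins. They are relatives of the Dyrk and Clk kinases and activate themselves by phosphorylating a tyrosine in their own activation loop. Hipk1 and Hipk2 act with p53 and its partners and in Wnt signalling, and Hipk2 is best known for phosphorylating p53 after DNA damage. Hipk2 protein is kept low by the ubiquitin ligases Siah1, Siah2 and Wsb1. Hipk3 is a close relative, and a large exon of it is known to form an abundant circular RNA, which counts per gene do not separate from its mRNA. Hipk4 is the divergent member, lacks the homeodomain-interacting region and is best known from the testis, where it acts in the shaping of the sperm head.

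In mm10, Hipk1 lies on the minus strand of chromosome 3 from 103739815 to 103791563, and its longest coding sequence has 3633 bases. Hipk2 lies on the minus strand of chromosome 6 from 38694390 to 38876165 and has 3591 coding bases. Hipk3 lies on the minus strand of chromosome 2 from 104426481 to 104494446 and has 3642 coding bases. Hipk4 is the compact member, on the plus strand of chromosome 7 from 27523267 to 27531175, with 1851 coding bases. The GC content of the coding sequence was 51.5% in Hipk1, 55.0% in Hipk2, 48.5% in Hipk3 and 60.1% in Hipk4. The start of Hipk2 overlaps that of Tbxas1 on the opposite strand. Hipk1 overlaps Gm10964 and the antisense gene Gm15886 on the opposite strand, and Gm15886 spans the start codon of Hipk1. On the same strand, Gm43149 and Gm43387 lie within Hipk1 and Mir1902 within Hipk3. Whether reads were counted by strand is not given in the sources used here, so reads from overlaps on opposite strands cannot be told apart.

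The bases around the start codon are shown because ribosome occupancy per RNA differed widely between members. They come from the GENCODE transcripts of mm10, with 9 bases on each side of the start codon, which is in capitals.
Hipk1: cgcctcagtATGgcctcacag
Hipk2: ccggccccgATGgcccccgtg
Hipk3: taggaaggtATGgcctcacaa
Hipk4: caaggtaccATGgccaccatc
These start codons are at 103778295 to 103778297 on chromosome 3, at 38875815 to 38875817 on chromosome 6, at 104471843 to 104471845 on chromosome 2 and at 27523517 to 27523519 on chromosome 7. All 4 have a G right after the start codon, as do 49.3% of 20103 genes. The base at the third place before it is a purine in Hipk1, Hipk3 and Hipk4, as in 83.9% of those genes, and a C in Hipk2. Hipk4, the member with the fewest RPFs per RNA, thus has a purine there and Hipk2 does not. This is a description of the letters and not of their effect.

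In basal slices Hipk3 had the most RNA per length and Hipk1 the most RPFs. Levels are given as CPM (a gene's count relative to its library's total, scaled by edgeR's TMM method), divided by the length in kilobases of the longest annotated protein-coding transcript for RNA (7939 bases in Hipk1, 7684 in Hipk2, 7454 in Hipk3 and 2926 in Hipk4) and of the counted part of the longest coding sequence for RPF. In Hipk3 and Hipk4 these are not the same transcript: the one with the longest coding sequence has 3651 and 2409 bases. The RNA level was 31.1 ± 6.23 CPM per kb (SD, n = 4) for Hipk3, 23.0 ± 2.59 for Hipk1, 15.0 ± 4.12 for Hipk4 and 8.35 ± 1.79 for Hipk2. This order held in 4 of 4 replicates, but the ranges of Hipk3 and Hipk1 overlapped, as did those of Hipk4 and Hipk2, and those of Hipk1 and Hipk4 did not. With the median in place of the longest transcript length, Hipk4 and Hipk2 came out alike, at 16.4 and 16.3 CPM per kb, and Hipk3 and Hipk1 at 56.1 and 43.7. With the transcript of the longest coding sequence, Hipk3 was at 63.4 and Hipk4 at 18.2 CPM per kb. Against 12457 genes, 81.6% had less basal RNA per length than Hipk3, 75.2% less than Hipk1, 64.3% less than Hipk4 and 48.0% less than Hipk2.

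The order of the RPF levels was another. Hipk1 had 18.7 ± 1.11 CPM per kb (SD, n = 5), Hipk3 8.64 ± 0.478, Hipk2 8.29 ± 0.236 and Hipk4 0.0844 ± 0.109. Hipk1 was above Hipk3 in 5 of 5 replicates with no overlap. Hipk3 and Hipk2 overlapped and stood in this order in 4 of 5 basal and 3 of 5 DHPG replicates. Of the family's summed level per length in basal slices, Hipk1 made up 29.7% ± 1.58 of the RNA and 52.3% ± 1.49 of the RPFs. Hipk2 made up 10.7% ± 1.78 of the RNA and 23.3% ± 1.12 of the RPFs. Hipk3 held the largest part of the RNA, 40.0% ± 6.31, and 24.2% ± 0.857 of the RPFs. Hipk4 held 19.6% ± 6.46 of the RNA and 0.236% ± 0.305 of the RPFs. After DHPG the same shares of RPFs were 52.1% for Hipk1, 23.9% for Hipk2, 23.9% for Hipk3 and 0.122% for Hipk4.

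**Figure D1:**
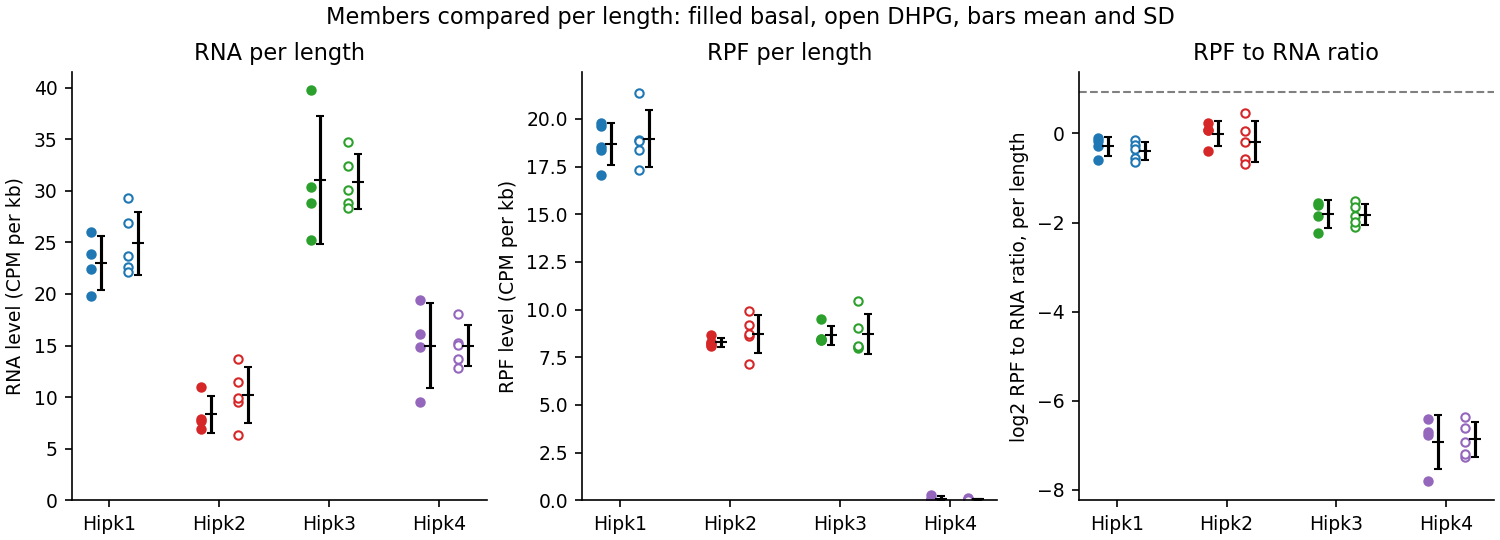
RNA level, RPF level (both CPM per kb) and log2 RPF to RNA ratio per length of the 4 members, with basal libraries as filled and DHPG libraries as open points, and bars for the mean and SD. The dashed line is the median ratio of 12229 genes in basal slices (0.94), and Hipk3 is highest in RNA, Hipk1 in RPF, and Hipk4 is near 0 in RPF.

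Ribosome occupancy per RNA, the log2 ratio of RPF to RNA per length, was below the median gene for every member. In basal slices it was -0.0042 ± 0.274 (SD, n = 4) for Hipk2, -0.29 ± 0.220 for Hipk1, -1.81 ± 0.312 for Hipk3 and -6.92 ± 0.601 for Hipk4, against a median of 0.94 over 12229 genes. The value of Hipk4 depends on the prior count of 2 that was added before the logarithm. Of those genes 24.9% had a lower ratio than Hipk2, 18.8% a lower one than Hipk1 and 1.69% a lower one than Hipk3. Both lengths enter these ratios, so they rest on the annotated transcripts. With the RNA length of the transcript that holds the longest coding sequence, the ratio was -2.84 ± 0.312 for Hipk3 and -7.20 ± 0.601 for Hipk4. That transcript of Hipk3 is annotated with 3651 bases, 3642 of them coding, so it holds almost no untranslated sequence.

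Hipk3 thus carried few RPFs for its RNA count, in which the part of circular RNA was not tested. Its ratio in the basal replicates was -1.85, -1.60, -1.57 and -2.24, and after DHPG it was -1.85, -1.53, -1.64, -2.10 and -1.99, so the groups overlapped. The ratio of Hipk2 exceeded that of Hipk3 by 1.81 ± 0.365 and that of Hipk1 exceeded it by 1.52 ± 0.310, each in 4 of 4 replicates. Hipk1 was below Hipk2 by 0.29 on the log2 scale, with an SD of 0.0685, in 4 of 4 basal replicates. In the DHPG libraries that difference was -0.20 ± 0.351 (SD, n = 5), with Hipk1 above Hipk2 in 2 of 5 replicates. For each of the 6 pairs of members an exact two-sided sign-flip permutation test gave p = 0.125 (adjusted p = 0.125), which is the smallest that 4 replicates allow. The 9 measured kinases among Dyrk1a, Dyrk1b, Dyrk2, Dyrk3, Dyrk4, Clk1, Clk2, Clk3, Clk4 and Prpf4b had basal ratios from -0.82 (Dyrk1b) to 2.99 (Prpf4b), all above Hipk3. Clk2, at 0.12, and Dyrk2, at -0.11, were nearest to Hipk2.

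**Figure D2:**
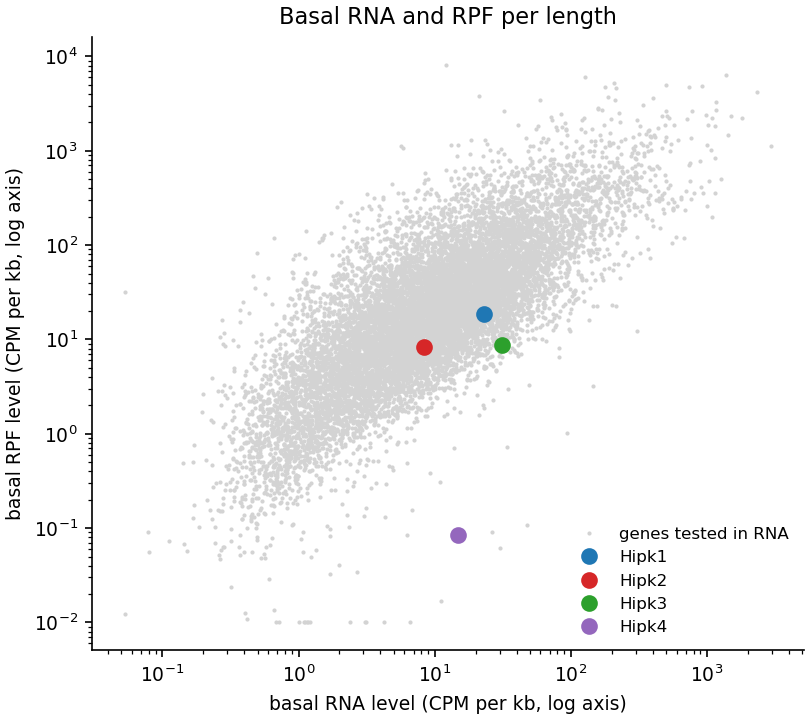
Mean basal RNA and RPF levels (CPM per kb, log axes) of 12457 genes tested in RNA (grey) and of the 4 members (coloured), with 13 genes below 0.01 drawn at 0.01. Hipk3 lies at the lower edge of the genes of its RNA level, and Hipk4 lies far below them at 15.0 CPM per kb of RNA and 0.0844 of RPF.

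Hipk4 had RNA counts in every library but almost no RPFs. Its RNA counts were 266, 229, 368 and 197 in the basal libraries and 346, 214, 309, 285 and 223 after DHPG. Its RPF counts were 1, 2, 0, 0 and 6 in the basal libraries and 1, 1, 1, 1 and 0 after DHPG, so 6 of the 9 basal RPF counts came from replicate 5. A count of 0 allows up to 0.136 CPM in basal replicate 3 and 0.350 CPM in basal replicate 4. Pooled over the basal libraries, 9 RPF counts of 65913467 gave 0.137 CPM without TMM scaling (exact Poisson 95% interval 0.0624 to 0.259, counting error only), beside 1060 RNA counts and 43.3 CPM. After DHPG, 4 RPF counts stood beside 1377 RNA counts, or 0.0650 CPM (0.0177 to 0.166) beside 43.5.

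Among 4891 genes with a length and at least as much pooled basal RNA, the ratio per length of Hipk4 was 0.00516 (0.00236 to 0.00980) and the 4th lowest. This sets RPFs of 5 basal libraries against RNA of 4, since replicate 5 has no basal RNA library. The intervals hold the counting error of the RPFs only. Without the RPF library of replicate 5, both sides come from the same lysates. Then 3 counts were left, and the ratio was 0.00212 (0.000437 to 0.00620) and the 2nd lowest. The genes below it with all libraries, named after their values were seen, were Klhl34, Slc3a1 and Sp140, at 0.00187, 0.00194 and 0.00334. The nearest protein-coding gene to Hipk4 is Pld3, which encodes a lysosomal exonuclease and lies on the opposite strand at a distance of 824 bases. Pld3 was at 755 ± 216 CPM (SD, n = 4) in basal RNA and 990 ± 81.3 (SD, n = 5) in basal RPF. Prx, 3052 bases away on the same strand, was at 3.03 ± 0.432 CPM in RNA and 0.217 ± 0.141 in RPF. The part that reads from either neighbour have in the RNA counts of Hipk4 was not tested.

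DHPG was followed by a higher RNA level of Hipk2 in each of 4 replicate pairs. Hipk2 RNA was at 84.3, 60.2, 53.1 and 59.2 CPM in basal replicates 1 to 4 and at 105, 73.0, 75.9 and 88.4 CPM in the DHPG libraries of the same numbers. The DHPG library of replicate 5, which has no partner, was the lowest of all at 48.9 CPM, and the groups overlapped. The log2 change within pairs was 0.32, 0.28, 0.51 and 0.58, which put Hipk2 above 91.9%, 85.4%, 96.5% and 96.8% of the genes tested. The fitted log2 fold change was 0.42 (SE 0.0787), or 1.34-fold, above that of 98.9% of 12935 genes. This fit has replicate number as a block, so the unpaired library adds nothing to it. Without the block, where that library counts, the log2 fold change was 0.29 (SE 0.202). Since the family was chosen for this change, both values are descriptions. In RNA, 0.00773% of the genes tested passed an adjusted p of 0.01 in edgeR, and 8.67% were higher in every pair.

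Hipk1 RNA was also higher in 4 of 4 pairs, by a smaller amount. It was at 206, 178, 157 and 189 CPM in the basal libraries and at 213, 188, 180, 233 and 176 CPM after DHPG, with overlap of the groups. Its log2 fold change was 0.15 (SE 0.0701), and 0.10 (SE 0.0794) without replicate 4. Hipk3 RNA was at 226, 215, 188 and 297 CPM in the basal libraries and at 215, 224, 211, 259 and 241 after DHPG. It was higher in 2 and lower in 2 pairs, with a log2 fold change of -0.014 (SE 0.0717) that was 7.2e-05 without replicate 1 and 0.048 without replicate 4. Hipk4 RNA was at 43.5, 47.2, 56.8 and 27.8 CPM in the basal libraries and at 44.7, 44.1, 52.7, 40.0 and 37.5 after DHPG. Its log2 fold change of 0.081 (SE 0.0954) rested on pair 4, where it was 0.52, and was -0.057 without that replicate.

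**Figure D3:**
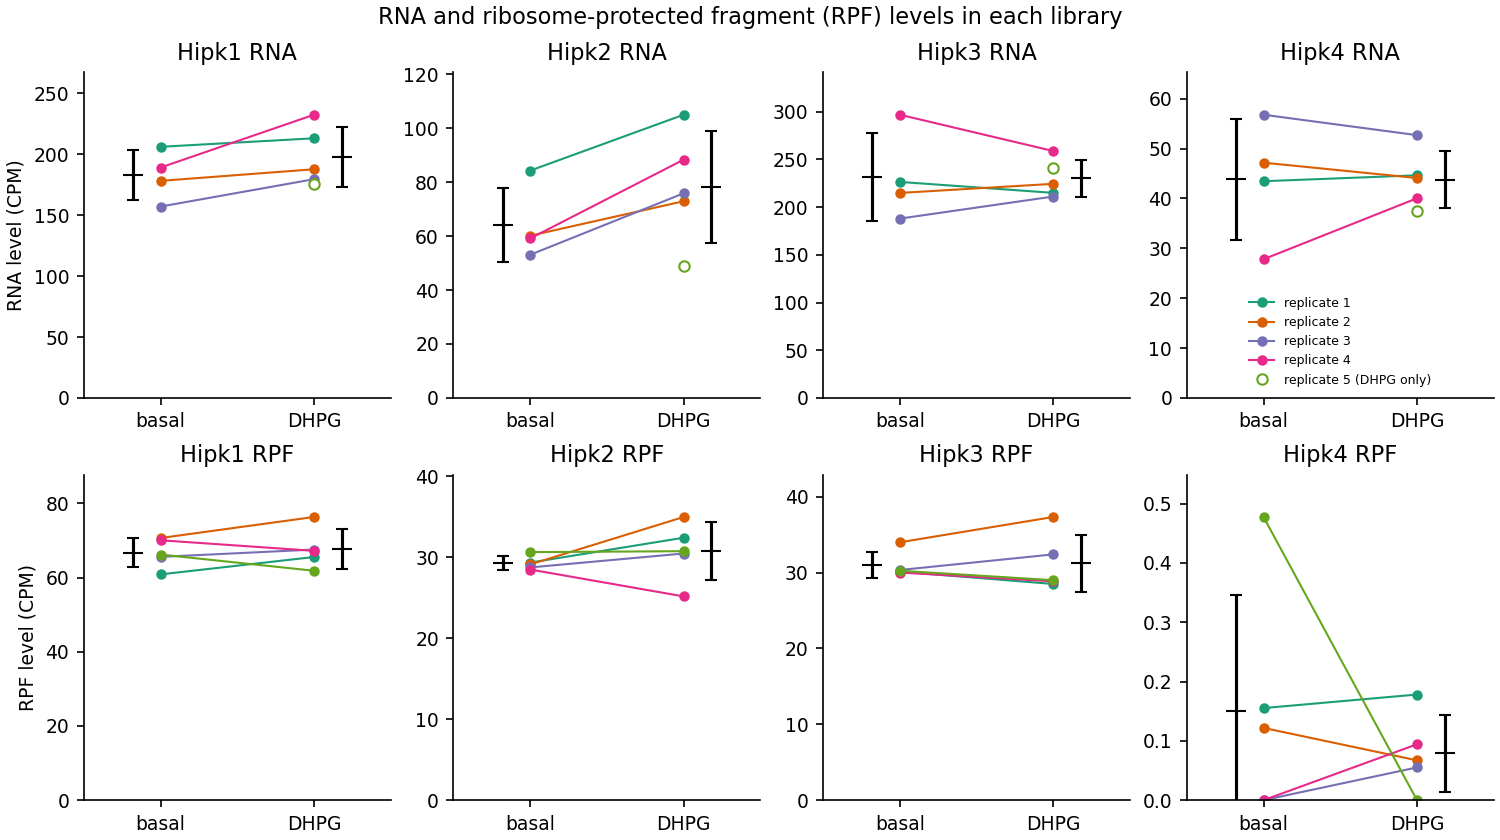
RNA and RPF levels (CPM) of each member in every library, with a line for each replicate pair and bars for the mean and SD of each group. Hipk2 RNA is higher after DHPG in 4 of 4 pairs, and the RPF panel of Hipk4 spans 0 to 0.477 CPM, with its lower SD bar ending at the axis.

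The RPFs of the 3 members tested did not pass the threshold, while 0.22% of 13208 genes did at an adjusted p of 0.05 in edgeR (24 genes or 0.182% higher, 5 genes or 0.0379% lower). None of the 3 was higher in every pair, as 5.16% of the genes were. Hipk2 RPFs were at 29.3, 29.1, 28.7, 28.5 and 30.6 CPM in the basal libraries and at 32.4, 35.0, 30.5, 25.2 and 30.7 after DHPG. The basal values lay close together, and the DHPG values spread to both sides of them. Hipk2 was higher in 4 of 5 pairs, with a log2 fold change of 0.079 (SE 0.0570, adjusted p = 0.663). Its 95% interval ran from -0.036 to 0.19, that is from 0.976-fold to 1.14-fold. The value was 0.017 without replicate 2 and 0.13 without replicate 4, and the adjusted p ranged from 0.469 to 1 over the edgeR alternatives.

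Hipk1 RPFs were at 60.8, 70.6, 65.6, 70.0 and 66.2 CPM in the basal libraries and at 65.5, 76.3, 67.5, 67.2 and 61.8 after DHPG, with a log2 fold change of 0.021 (SE 0.0417, adjusted p = 0.900, interval -0.063 to 0.11). Hipk3 RPFs were at 30.1, 34.0, 30.3, 30.001 and 30.2 CPM in the basal libraries and at 28.5, 37.3, 32.4, 28.8 and 29.0 after DHPG, with a log2 fold change of 0.031 (SE 0.0535, adjusted p = 0.878, interval -0.077 to 0.14). Hipk1 was higher in 3 of 5 pairs and Hipk3 in 2 of 5, and the groups overlapped for each. Replicate 2 was the highest in both treatments for Hipk1 and Hipk3, and without it their log2 fold changes were -0.0085 and -0.0060. The intervals show which changes these libraries leave possible and do not show that the levels were equal.

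The change of the RPF to RNA ratio with DHPG, fitted over all 19 libraries, was -0.35 (SE 0.0930) on the log2 scale for Hipk2, lower than that of all but 2.51% of 12691 genes. It was -0.22 (SE 0.220) without the replicate block and ranged from -0.45 to -0.24 with 1 replicate left out. The log2 ratio per length of Hipk2 was -0.40, 0.076, 0.24 and 0.069 in the basal replicates and -0.57, 0.062, -0.19, -0.69 and 0.45 after DHPG. It was lower after DHPG in 4 of 4 pairs, with changes from -0.75 to -0.014, while the unpaired DHPG replicate 5 was the highest of all. The log2 ratio of Hipk1 was -0.61, -0.18, -0.11 and -0.28 in the basal replicates and -0.55, -0.15, -0.26, -0.64 and -0.35 after DHPG. The fitted change was -0.14 (SE 0.0743) for Hipk1 and 0.043 (SE 0.0842) for Hipk3, each lower in 2 of 4 pairs, and without replicate 4 these were -0.062 (SE 0.0793) and -0.00081 (SE 0.0895). These values hold the RNA change and are given without a test. No gene of the whole table passed an adjusted p of 0.05 for the ratio (0% by edgeR and 0 genes by limma, with 859 at an unadjusted p under 0.05 in edgeR).

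Markers of some other cells, though not of all, moved in the same pairs as Hipk2 RNA. All markers of the hippocampal regions and cell types were above 0 in every library. The summed RNA of 8 thalamus markers was 96.0 to 129 CPM in basal and 118 to 163 CPM in DHPG libraries, higher in 4 of 4 pairs by 0.19 to 0.58 on the log2 scale. That of 6 oligodendrocyte markers was 2462 to 5282 CPM in basal and 2812 to 6034 CPM in DHPG libraries, higher in 4 of 4 pairs by 0.10 to 0.22. That of 3 dentate gyrus markers was 163 to 211 CPM in basal and 182 to 227 CPM in DHPG libraries, higher in 4 of 4 pairs by 0.056 to 0.17. In pairs 1 to 4 the thalamus markers changed by 0.19, 0.58, 0.44 and 0.34, and Hipk2 RNA by 0.32, 0.28, 0.51 and 0.58. The summed RNA of CA1, excitatory neuron, astrocyte, oligodendrocyte precursor and microglia markers was higher in 3 of 4 pairs. For CA3 markers this was 2 of 4 pairs. Inhibitory neuron and endothelial markers were higher in 1 of 4 pairs, and the endothelial sum changed by -0.79 to 0.15. The part of these cells in the change of Hipk2 was not tested.

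Partners of the family were followed in 5 lists of 59 genes. In RNA 0 of the 51 tested passed (edgeR, and 0 in each alternative run, DESeq2 included), against 0.00773% of all genes tested. At an unadjusted p under 0.05 in edgeR there were 3 in RNA, against 8.02% of all genes. In RPF 1 of 53 passed, against 0.22% of all genes. At an unadjusted p under 0.05 in edgeR there were 5 in RPF, against 10.8% of all genes. For the nearest kinases the list's median log2 fold change was 0.034 (RNA) and -0.021 (RPF). It was 0.026 and 0.027 for the Wnt and TAK1-NLK partners, 0.16 and -0.055 for the p53 and cell death partners, 0.096 and 0.019 for the transcription partners and -0.047 and 0.0035 for turnover and SUMO genes. All genes tested had medians of 0.0068 in RNA and 0.0031 in RPF. These medians depended on single replicates. The RNA median of the p53 list was 0.36 without replicate 2, -0.0017 without replicate 1 and -0.0045 without replicate 4. With 1 replicate left out, the RNA median ranged from 0.0096 (without replicate 3) to 0.062 (without replicate 2) for the nearest kinases, from 0.0077 (without replicate 1) to 0.076 (without replicate 2) for the Wnt partners, from 0.053 (without replicate 4) to 0.16 (without replicate 2) for the transcription partners and from -0.071 to -0.041 for turnover and SUMO genes. The RPF medians ranged from -0.066 to -0.0054, from 0.018 to 0.032, from -0.073 to -0.037, from 0.00056 to 0.036 and from -0.041 to 0.032 in the order of the lists above.

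The gene that passed was Tcf7l2, a transcription factor that acts with β-catenin at Wnt targets. Its RPFs rose from 16.2 ± 1.84 to 19.95 ± 3.18 CPM (SD, n = 5 and 5), with a log2 fold change of 0.31 (SE 0.0689, adjusted p = 0.0299 in edgeR) and a rise in 5 of 5 pairs. No list gene passed in RPF by DESeq2 (with the block or after ComBat), without the replicate block, or when 1 of replicates 1 to 4 was left out, and 2 passed without replicate 5. Tcf7l2 and Lef1, another gene of the Wnt list, are also among the thalamus markers, so the marker sum holds Tcf7l2 itself. The summed RPFs of these markers were 141 to 176 CPM in basal and 144 to 233 CPM in DHPG libraries, higher in 4 of 5 pairs. In pair 5, where Tcf7l2 rose, the sum changed by -0.24 on the log2 scale. The summed RPFs of 6 astrocyte markers (4882 to 5892 CPM in basal, 5090 to 6249 in DHPG libraries), 6 microglia markers (298 to 433 and 350.01 to 468) and 6 inhibitory neuron markers (1142 to 1248 and 1225 to 1314) were higher in 5 of 5 pairs, by at most 0.085, 0.30 and 0.11 on the log2 scale. The summed RPFs of the other marker sets were higher in 2 to 4 of 5 pairs. In RNA the inhibitory neuron markers were higher in 1 of 4 pairs. The part of these cells in the change of Tcf7l2 was not tested. Tcf7l2 RNA had a log2 fold change of 0.61 (SE 0.197, adjusted p = 0.538).

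The remaining named partners did not pass. They were named among genes that moved 1 way in every pair, so their pair counts follow from that choice. Among the Hipk relatives, Clk2, a kinase of splicing factors, had an RNA log2 fold change of 0.21 (SE 0.109, higher in 4 of 4 pairs), and Clk4 an RPF change of -0.11 (SE 0.0572, lower in 5 of 5). Trp53inp1, a p53 target that forms a complex with Hipk2 and p53, had an RNA change of 0.38 (SE 0.166, 4 of 4 pairs). Of the ubiquitin ligases of Hipk2, Siah2 had an RNA change of 0.097 (SE 0.0861, higher in 4 of 4 pairs) and Wsb1 one of -0.16 (SE 0.103, lower in 4 of 4). The chaperone-linked ligase Stub1 had an RPF change of -0.073 (SE 0.0358, lower in 5 of 5). The transcription factors Pax6 (RNA 0.23, SE 0.178) and Rbpj (RPF -0.086, SE 0.0587) also kept 1 direction in every pair.

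Over the 19 libraries, each assay centred on its own mean, the genes most like Hipk2 in log2 CPM among 10538 genes were Rbm33 (Pearson's r = 0.85), Zfp609 (0.84), Fnbp1 (0.84), Ccdc6 (0.83) and R3hdm2 (0.83). Within the RNA libraries alone their r was 0.86 to 0.90, and within the RPF libraries alone it was 0.76 for Rbm33, 0.57 for R3hdm2, 0.42 for Zfp609, 0.31 for Ccdc6 and 0.23 for Fnbp1. The correlation kept the difference between treatments, so the RNA change of Hipk2 with DHPG took part in choosing these genes. As a description only, their RNA log2 fold changes with DHPG ran from 0.16 to 0.26. Their RPF log2 fold changes ran from -0.058 to 0.026. Those most like Hipk1 were Cit (0.91), Spin1 (0.90) and Hlf (0.88), and those most like Hipk3 were Rab3c (0.94), Map2 (0.93) and Zfp654 (0.92). Within the family Hipk2 and Hipk1 had an r of 0.71 over both assays, 0.82 in RNA and 0.29 in RPF. For Hipk1 and Hipk3 it was 0.55, with 0.46 in RNA and 0.77 in RPF, and for Hipk2 and Hipk3 it was 0.083, with -0.018 in RNA and 0.51 in RPF. Of these pairs, the one most alike in RNA was the least alike in RPF. The values within the family also keep the difference between treatments, and so the RNA change for which the family was chosen. RNA and RPF libraries of 1 replicate and treatment share a lysate and libraries of a replicate number deviate together, so these correlations describe 19 libraries that are not independent.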

How the data were processed

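The authors removed adapters and low-quality bases (cutadapt, Trimmomatic), discarded rRNA and tRNA reads (Bowtie2), aligned the rest to mm10 (TopHat2), collapsed reads with the same molecular identifier and deposited RSEM's expected counts as whole numbers, RNA on whole transcripts and RPFs on coding sequences without 30 bases at each end. RNA libraries were depleted of rRNA. Columns of 12 libraries that match no sample here were not used. RNA libraries held 4870813 to 7793244 counts and RPF libraries 5692064 to 22092434.

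The treatments were compared with edgeR 4.0.16 in R 4.3.3 (quasi-likelihood F test, TMM, filterByExpr, replicate number as a block). P-values were adjusted by Benjamini-Hochberg across the whole table, with thresholds of 0.01 in RNA and 0.05 in RPF. For the ratio, 1 model of all libraries held a term for treatment by library type. Log2 CPM used a prior count of 2. Replicate numbers paired the samples: deviations of same-numbered libraries from their group means correlated by 0.308 to 0.741 in RNA and 0.259 to 0.523 in RPF, and the study treats the numbers as batches. P-values of the block fits measure the spread of the change between replicate pairs of pooled lysates, since the block takes out differences between replicates.

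Members and lists were chosen with earlier results of these data known. Named partners were those past the threshold, or otherwise the highest and lowest that moved 1 way in every pair, and the genes most like a member were those with the highest correlation, at a mean of at least 5 CPM. Alternatives used DESeq2 1.42.0, limma 3.58.1 and ComBat (sva 3.50.0). Tested on simulated data with a log2 change of 0.5 given to 200 genes, the block fit called 69% of changed RNAs (12864 genes, 0 false of 138 calls) and 89.5% of changed RPFs (13144 genes, 10 false of 189), and the ratio fit called 59.1% (12623 genes, 13 false of 130). The simulated counts were drawn from means and spreads that edgeR fitted to these libraries by replicate, with RNA and RPF drawn separately. They thus check the fits only under the fits' own assumptions. Gene positions came from GENCODE M21.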

Additional observations from a re-analysis of the deposited data

Results flagged for a closer look

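Hipk3 in the basal RPF library of replicate 2 was at 33.98 CPM, apart from the other 4 basal libraries, which lay at or below 30.33 CPM. Of 31 groups of 4 or 5 libraries examined in this way, 1 stood out, where chance gives about 1.55.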

How the results depend on the processing

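Changes of sign were seen in 6 values of members, 5 of them by a shift smaller than the standard error. They were the RPF changes of Hipk1 (-0.0085) and Hipk3 (-0.0060) without replicate 2, with ranges up to 0.050 and 0.053 with 1 replicate left out, the RNA change of Hipk3 without replicates 1 (7.2e-05) and 4 (0.048), the RNA change of Hipk4 (-0.057) and the ratio change of Hipk3 (-0.00081) without replicate 4. List medians changed sign in 6 cases: the p53 list in RNA without replicates 1 and 4, the Wnt list in RNA with the GC and length trend removed (-0.025), and turnover and SUMO genes in RPF with ComBat then DESeq2 (-0.00044) and without replicates 1 (-0.021) and 3 (-0.041). Hipk2 RNA stayed between 0.29 (no replicate block, SE 0.202, against an SE of 0.0787 with it) and 0.47 in all settings. Genes called in RNA, 1 as reported, were 102 with ComBat then DESeq2, 0 by DESeq2 with the replicate block, 0 with at least 10 counts in every library, 7 with no filter on low counts, 0 without the replicate block, and 0 to 22 with 1 replicate left out. Genes called in RPF, 29 as reported, were 429 with ComBat then DESeq2, 96 with no filter, 0 without the replicate block and 3 to 71 with 1 replicate left out. For the ratio, 0 as reported, they were 4 with no filter and 0 to 8 with 1 replicate left out. List genes called in RPF, 1 as reported, were 0 with ComBat then DESeq2, 0 by DESeq2, 0 without the replicate block and 0 to 2 with 1 replicate left out. With median transcript lengths, basal RNA was 43.7 CPM per kb for Hipk1, 16.3 for Hipk2 and 56.1 for Hipk3, and with the transcript of the longest coding sequence 63.4 for Hipk3, since the shorter length divides the same count. This last length, the pooled ratio of Hipk4 without a library and the removal of the trend with GC content and length were chosen after seeing the data, and the trend removal gave 0.36 for Hipk2 RNA. The cause of the other shifts was not tested. Depth limits Hipk4, whose RPF counts were 0 to 6 per library.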
